A study of Mus musculus with 22 samples.

Results

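The 35 genes described here encode the machinery of mitosis. They comprise 7 kinesin motors, 7 spindle and cytokinesis proteins, 4 kinetochore proteins, 3 spindle checkpoint kinases, 6 mitotic kinases and chromosomal passenger proteins, 3 genes for cyclins and their kinase, 3 genes tied to the anaphase-promoting complex, and the chromosome genes Mki67 and Top2a. They were chosen by name from a list of 36 symbols, each taken where an array probe set was annotated with exactly 1 gene symbol. Of the 36, 35 had such a probe set, among 14860 genes that did. Cenpf was the member without one and is not analysed here. All 35 were among the 8545 genes that passed the filter on low values, a log2 value above 4.55, the median over the table, on 3 or more of the 22 arrays. Of the 35, 19 were above that median on all 22 arrays. Plk1 was the only member with more than 1 probe set, and its other probe set, with group means between 3.36 and 3.91, was not used.

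The RNA came from γδ thymocytes, T-cell precursors of the γδ lineage, sorted from the thymus of female C57BL/6 mice aged 8 weeks. Cells carrying the γ chain Vg1.1 and cells carrying Vg2 were each sorted at 3 stages defined by the surface proteins CD24 and CD73. Vg1.1+ cells gave 4 arrays at CD24+CD73-, 3 at CD24+CD73+ and 4 at CD24-CD73+, and Vg2+ cells gave 3, 4 and 4 arrays at the same stages. No group was treated, and each array held total RNA of 1 sample. The labels call the samples biological replicates and do not say whether mice were pooled, so each p-value is set against the spread of these samples only. All values below are the deposited log2 expression values or differences between their group means.

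Mitotic genes are transcribed late in the cell cycle, so that their messenger RNAs build up in G2 and mitosis and decay after division. A cell that has left the cycle keeps little of them. In resting cells a repressor called DREAM, built on the MuvB core and the pocket proteins, holds these promoters silent, and in dividing cells MuvB instead works with B-Myb and FoxM1 as an activator. Both forms contact a short promoter element named the cell cycle genes homology region, CHR, which often stands near CCAAT elements bound by NF-Y. CD24 is high on immature thymocytes and lost as γδ cells mature, and CD73 appears on γδ cells that have received a signal through their antigen receptor.

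The labelled sort could be checked for CD73 but not for CD24, whose gene was not analysed here. Nt5e, which encodes CD73, lay between 6.77 and 8.74 on the CD73+ arrays and between 3.04 and 3.93 on the CD24+CD73- arrays of both subsets. Cd3e, a subunit of the T-cell receptor complex, lay between 8.24 and 11.08 on all 22 arrays. Sox13, a transcription factor of early γδ thymocytes, fell at CD24+CD73+ relative to CD24+CD73-, differing by -1.56 ± 0.17 in Vg1.1+ and -1.70 ± 0.17 in Vg2+ cells. Its mean was higher again at CD24-CD73+ than at CD24+CD73+, 5.71 against 5.18 in Vg1.1+ and 6.37 against 5.52 in Vg2+ cells. The SD of all log2 values on an array ranged from 1.61 to 2.09, and the narrowest spreads were those of Vg1.1+ CD24-CD73+ replicate 1 (1.61) and Vg2+ CD24+CD73+ replicate 3 (1.71). Of the markers of other cells, the summed log2 value of the alpha-beta lineage list reached 29.1 on Vg1.1+ CD24+CD73- replicate 1, where Cd8a was at 7.06 and Cd8b1 at 7.74, against sums of 18.0 to 22.8 on the other 21 arrays. The myeloid list summed to 20.6 to 22.4 in Vg2+ CD24+CD73+ arrays and to 18.8 to 19.4 in Vg2+ CD24+CD73- arrays. Within that list C1qa and Csf1r were not higher in the Vg2+ CD24+CD73+ group.

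The promoters of 31 of the 35 genes were found in RefSeq (GRCm38.p6) as windows of 300 bases, 250 before the annotated start and 50 after it. Those of Kif20a, Tpx2, Aurkb and Ccna2 were not matched. CHR was searched as TTTGAA or TTCGAA and the CCAAT element as CCAAT, on both strands, and a CHR match can share a base with ATTGG, the reverse of CCAAT. CHR letters stood in 26 of the 31 windows (83.87%), against 21.66% of the 27025 genes with a window and 16.68% of the 7013 tested genes with one. They lay within 50 bases of the start in 24 of the 31 (77.42%), against 6.117% of all genes with a window. CCAAT stood in 23 of the 31 (74.19%) and in 41.06% of all genes with a window. Both elements stood in 21 of the 31 (67.74%) and in 8.614% of all genes with a window. The windows of Birc5, Cenpe, Nek2, Nuf2 and Nusap1 held no CHR letters. Among other lists CHR letters stood in 10 of 16 spindle and cytokinesis genes (62.5%), 6 of 12 condensin and cohesin genes, 5 of 11 DREAM, MuvB and E2F regulators (45.45%), 9 of 22 kinetochore genes (40.91%), 4 of 17 genes of mitotic entry and exit (23.53%) and 3 of 17 S phase genes (17.65%). CCAAT stood in 11 of the 17 S phase genes (64.71%). A match is a run of letters and not a measured binding site.

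Whole windows are shown for a cyclin, a kinase, an activator of the anaphase-promoting complex and a kinesin, from 5′ to 3′ on the strand of the gene, with CHR and CCAAT letters in capitals. On the opposite strand TTTGAA reads TTCAAA and CCAAT reads ATTGG.
Ccnb2 (chr9:70421505-70421804, minus strand): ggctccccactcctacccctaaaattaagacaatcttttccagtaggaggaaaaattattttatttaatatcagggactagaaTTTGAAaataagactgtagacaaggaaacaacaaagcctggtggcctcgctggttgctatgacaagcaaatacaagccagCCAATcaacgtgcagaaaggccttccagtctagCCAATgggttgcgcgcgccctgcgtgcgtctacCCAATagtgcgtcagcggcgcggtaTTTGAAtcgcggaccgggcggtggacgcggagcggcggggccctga
Plk1 (chr7:122159185-122159484, plus strand): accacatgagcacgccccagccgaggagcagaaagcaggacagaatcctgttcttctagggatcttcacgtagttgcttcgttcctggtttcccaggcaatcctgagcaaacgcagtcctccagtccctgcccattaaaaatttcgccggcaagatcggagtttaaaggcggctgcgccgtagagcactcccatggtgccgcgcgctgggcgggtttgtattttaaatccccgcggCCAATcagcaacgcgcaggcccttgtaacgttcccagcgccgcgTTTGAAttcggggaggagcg
Cdc20 (chr4:118437294-118437593, minus strand): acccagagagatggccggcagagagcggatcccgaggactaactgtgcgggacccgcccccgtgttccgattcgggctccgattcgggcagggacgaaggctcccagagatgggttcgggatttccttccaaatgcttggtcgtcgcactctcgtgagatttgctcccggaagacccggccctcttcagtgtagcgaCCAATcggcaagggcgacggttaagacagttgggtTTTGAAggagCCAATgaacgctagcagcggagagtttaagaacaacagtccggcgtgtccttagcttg
Kif11 (chr19:37376132-37376431, plus strand): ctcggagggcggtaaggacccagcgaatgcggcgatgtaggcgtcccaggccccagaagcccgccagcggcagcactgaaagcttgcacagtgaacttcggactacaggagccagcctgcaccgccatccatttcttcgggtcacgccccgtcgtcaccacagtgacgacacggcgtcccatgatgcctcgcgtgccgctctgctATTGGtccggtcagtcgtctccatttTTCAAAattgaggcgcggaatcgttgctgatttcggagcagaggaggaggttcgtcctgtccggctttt

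For 9 more members the 30 bases around the CHR letters nearest the start are shown, so that the flanks can be compared, with the CHR letters in capitals. They read TTTGAA except in Bub1 (TTCGAA) and in Ttk, Ndc80 and Top2a (TTCAAA).
Cdk1 (chr10:69352910-69352939, minus strand): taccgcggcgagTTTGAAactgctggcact
Bub1 (chr2:127831828-127831857, minus strand): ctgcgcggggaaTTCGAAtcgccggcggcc
Ttk (chr9:83834684-83834713, plus strand): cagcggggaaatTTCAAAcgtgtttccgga
Ndc80 (chr17:71526811-71526840, minus strand): gaaactttaaaaTTCAAAccgccttgggtt
Spc25 (chr2:69206172-69206201, minus strand): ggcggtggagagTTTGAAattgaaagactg
Kif23 (chr9:61946780-61946809, minus strand): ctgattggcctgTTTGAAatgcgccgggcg
Kif4 (chrX:100626072-100626101, plus strand): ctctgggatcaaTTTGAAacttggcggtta
Aspm (chr1:139454767-139454796, plus strand): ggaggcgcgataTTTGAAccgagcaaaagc
Top2a (chr11:99024195-99024224, minus strand): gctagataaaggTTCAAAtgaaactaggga

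**Figure D1:**
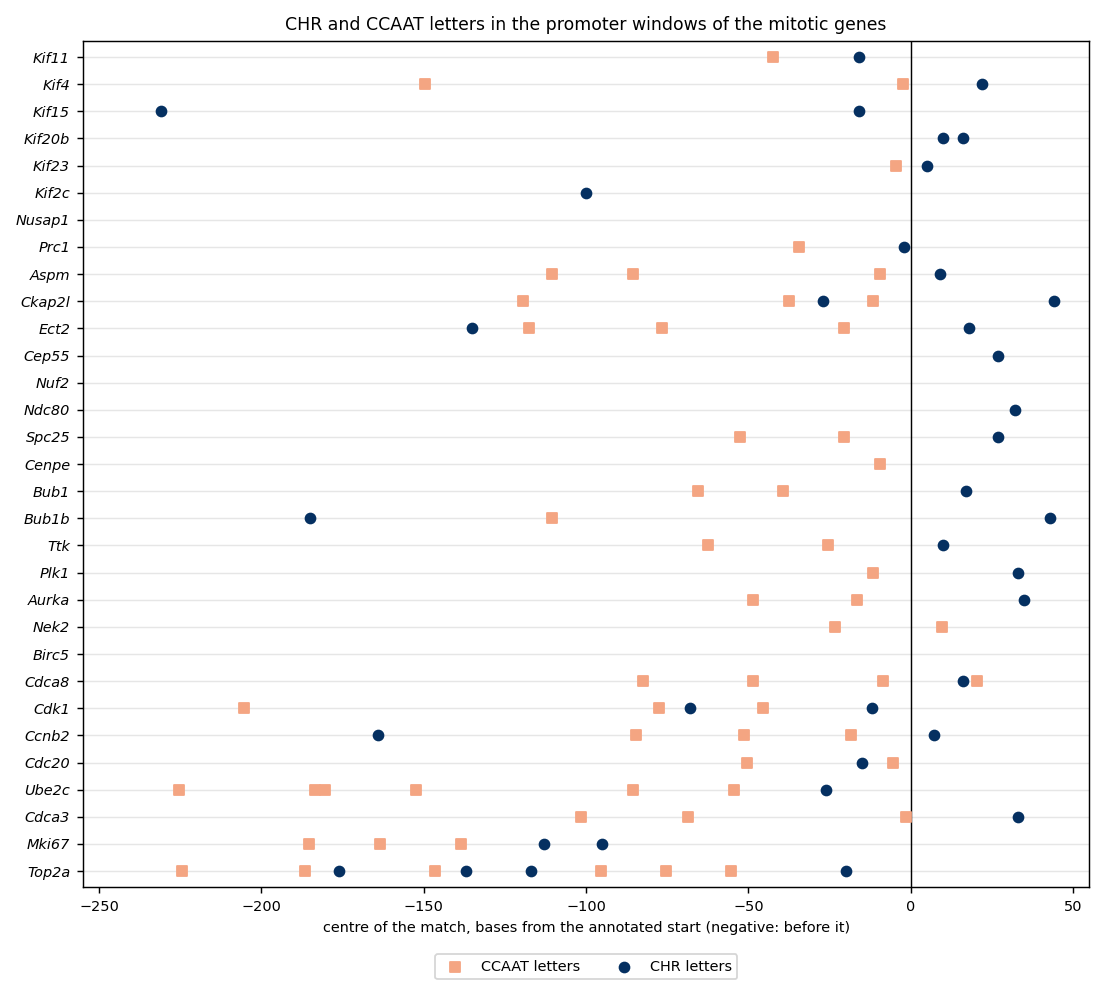
Position of CHR letters (circles) and CCAAT letters (squares) in the promoter windows of the 31 matched genes, in bases from the annotated start (x axis), with 1 gene a row. In 24 of the 31 genes a circle lies within 50 bases of the start.

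The mitotic genes changed little on balance between the CD24+CD73- and CD24+CD73+ stages and were far lower after CD24 was lost, in both subsets. The median of the 35 genes on an array lay at 6.82 to 7.02, 6.79 to 6.96 and 5.30 to 5.84 over the 3 stages in Vg1.1+ cells. In Vg2+ cells it lay at 6.42 to 6.47, 6.34 to 6.72 and 4.75 to 5.12. The CD24-CD73+ arrays were thus below all arrays of the earlier stages in each subset. Of the 35 genes, 28 had their highest group mean in Vg1.1+ CD24+CD73- cells, 4 in Vg1.1+ CD24+CD73+ cells and 3 in Vg2+ CD24+CD73+ cells. The lowest group mean of each of the 35 was that of Vg2+ CD24-CD73+ cells. In such bulk samples, fewer dividing cells and less mitotic RNA per cell cannot be told apart.

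**Figure D2:**
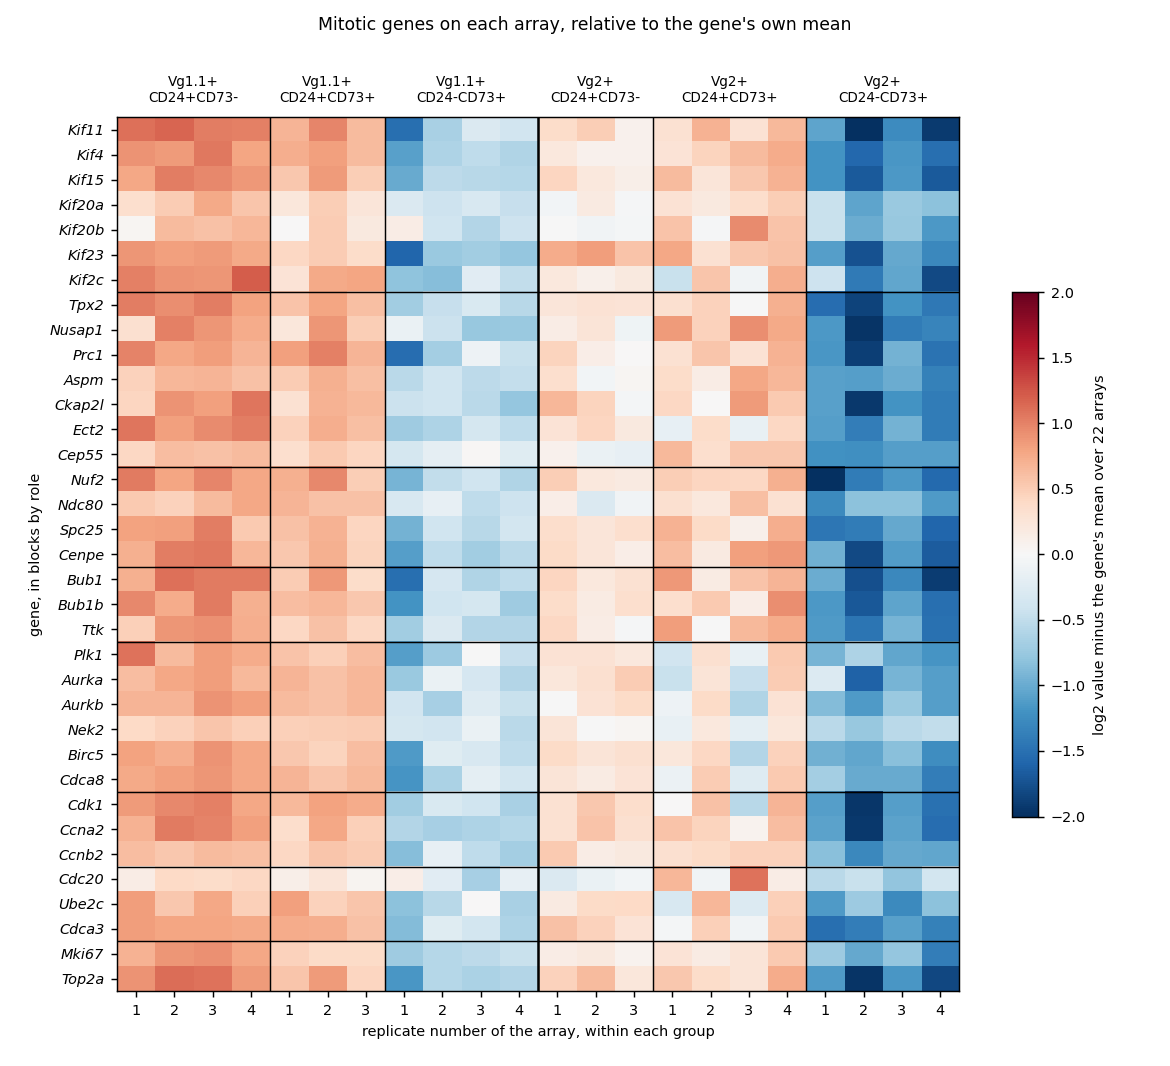
Log2 value of each of the 35 genes (rows, in blocks by role) on each of the 22 arrays (columns, by group), minus the gene's own mean over the arrays. Red is above and blue below that mean, and the CD24-CD73+ columns are blue in nearly every row, deeper in Vg2+ than in Vg1.1+ cells.

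CD24 loss, the CD24-CD73+ stage against CD24+CD73+, asks what changes as the cells mature. Of the 35 genes, 33 fell in Vg1.1+ cells at an adjusted p under 0.05 in limma, where 6.92% of all tested genes fell. In Vg2+ cells 35 of 35 fell, where 9.91% of all tested genes did. The median log2 difference of the 35 was -1.14 in Vg1.1+ cells (2.20-fold lower) and -1.63 in Vg2+ cells (3.09-fold lower), and that of all tested genes was -0.04 and 0.02. The genes ranged from -1.53 (Prc1) to -0.37 (Cdc20) in Vg1.1+ cells and from -2.20 (Nusap1) to -0.60 (Nek2) in Vg2+ cells. The arrays of the later stage were all below those of the earlier for 33 genes in Vg1.1+ cells (14.3% of all tested genes) and for 33 in Vg2+ cells (9.14%). Kif20b (-0.55 ± 0.22, adjusted p = 0.113) and Cdc20 (-0.37 ± 0.21, adjusted p = 0.282) were the 2 not called in Vg1.1+ cells. Over the whole course, CD24-CD73+ against CD24+CD73-, 35 fell in Vg1.1+ cells (13.6% of all tested genes fell) and 34 in Vg2+ cells (12.9%), with medians of -1.38 and -1.49. The arrays did not overlap for 34 genes in Vg1.1+ cells (14.5% of tested genes) and for 35 in Vg2+ cells (18.5%). Without Vg1.1+ CD24-CD73+ replicate 1 and Vg2+ CD24+CD73+ replicate 3, the arrays of narrowest spread, 34 fell with CD24 loss in Vg1.1+ cells and 35 in Vg2+ cells. The shares of all tested genes without those arrays are not given here. Of 3 tested alpha-beta markers 1 was called with CD24 loss, Cd8b1, which rose in Vg1.1+ cells (1.18) and in Vg2+ cells (0.79). The lowest of the 3 differences was 0.09 in Vg1.1+ and -0.21 in Vg2+ cells. Epcam, the 1 tested marker of thymic epithelium, fell in both subsets (-1.08 and -0.95). Foxn1, Krt5 and Psmb11 of that list did not pass the filter on low values. Their Vg1.1+ means were 3.63, 3.59 and 3.32 at CD24+CD73+ and 3.71, 3.74 and 3.65 at CD24-CD73+. Their Vg2+ means were 3.87, 3.88 and 3.59, then 3.87, 3.61 and 3.56. The 1 tested B cell marker, Cd79b, fell in Vg1.1+ cells (-1.03) and rose in Vg2+ cells (0.99). Of 3 myeloid markers 1 fell in Vg2+ cells, Cd68 (-0.63). The myeloid sum in Vg2+ cells was 19.3 to 21.4 at CD24-CD73+ and 20.6 to 22.4 at CD24+CD73+. The part of these markers in the fall of the mitotic genes was not tested.

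The kinesins carry chromosomes and build the spindle and midzone. Kif11, the motor that pushes the spindle poles apart, had log2 values in Vg1.1+ cells of 8.26, 8.32, 8.18 and 8.17 in the CD24+CD73- arrays, 7.84, 8.14 and 7.80 in the CD24+CD73+ arrays and 5.65, 6.50, 6.86 and 6.77 in the CD24-CD73+ arrays. In Vg2+ cells it had 7.53, 7.65 and 7.24 in the CD24+CD73- arrays, 7.47, 7.85, 7.45 and 7.80 in the CD24+CD73+ arrays and 6.11, 4.75, 5.90 and 5.24 in the CD24-CD73+ arrays. Every CD24-CD73+ array was below every earlier array of its subset, and replicate 1 was the lowest of the 4 Vg1.1+ arrays at that stage. Kif11 differed by -1.48 ± 0.27 (adjusted p = 0.000724) with CD24 loss in Vg1.1+ cells (2.78-fold lower) and by -2.14 ± 0.25 (adjusted p = 1.32e-06) in Vg2+ cells (4.42-fold lower). Its window, shown above, holds CHR and CCAAT letters on the opposite strand. The chromokinesin Kif4 fell by 1.43 in Vg1.1+ and 1.88 in Vg2+ cells, and Kif15, which backs up Kif11 on the spindle, by 1.29 and 1.95. Kif23, a subunit of the midzone complex centralspindlin, fell by 1.38 and 1.84. Kif2c, which depolymerises microtubules at centromeres, fell by 1.20 and 1.36, although its Vg2+ groups overlapped. Kif20a, which is needed for cytokinesis, fell by 0.69 in Vg1.1+ cells and was 2.15-fold lower in Vg2+ cells.

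Kif20b, a kinesin of the late stages of cytokinesis, departed from the other kinesins. In Vg1.1+ cells it had 6.67, 7.27, 7.22 and 7.30 in the CD24+CD73- arrays, 6.64, 7.15 and 6.82 in the CD24+CD73+ arrays and 6.78, 6.24, 6.04 and 6.22 in the CD24-CD73+ arrays. Its Vg2+ values were 6.62, 6.56 and 6.59 in the CD24+CD73- arrays, 7.20, 6.60, 7.58 and 7.21 in the CD24+CD73+ arrays and 6.19, 5.64, 5.88 and 5.49 in the CD24-CD73+ arrays. Replicate 1 was the lowest of the Vg1.1+ CD24+CD73- arrays and the highest of the Vg1.1+ CD24-CD73+ arrays, and the Vg1.1+ groups overlapped. With CD24 loss in Vg2+ cells Kif20b differed by -1.35 ± 0.20 (adjusted p = 3.39e-05). The mean of the 7 kinesins was 7.03 ± 0.07, 6.74 ± 0.15 and 5.59 ± 0.18 over the 3 stages in Vg1.1+ cells (SD over arrays, n = 4, 3 and 4). In Vg2+ cells it was 6.43 ± 0.07, 6.66 ± 0.14 and 4.99 ± 0.34 (n = 3, 4 and 4).

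Among the spindle and cytokinesis proteins, all 7 fell with CD24 loss in both subsets. Nusap1 binds and bundles spindle microtubules. In Vg1.1+ cells Nusap1 had 7.65, 8.34, 8.21 and 8.08 in the CD24+CD73- arrays, 7.55, 8.22 and 7.82 in the CD24+CD73+ arrays and 7.20, 6.91, 6.56 and 6.59 in the CD24-CD73+ arrays. The Vg2+ arrays gave 7.47, 7.59 and 7.25 in the CD24+CD73- arrays, 8.17, 7.79, 8.26 and 8.09 in the CD24+CD73+ arrays and 6.18, 5.37, 5.93 and 6.00 in the CD24-CD73+ arrays. The CD24-CD73+ arrays were below the others in each subset, and the Vg2+ arrays lay lower than the Vg1.1+ arrays at that stage. Nusap1 differed by -1.05 ± 0.21 (adjusted p = 0.0015) in Vg1.1+ cells and by -2.20 ± 0.19 (adjusted p = 2.16e-08) in Vg2+ cells, where its fall of 4.61-fold was the largest of the 35 genes. Tpx2, which activates Aurora A on the spindle, fell by 1.16 and 1.87 in Vg1.1+ and Vg2+ cells. Prc1, which bundles the midzone microtubules, fell by 1.53 and 1.82. Aspm, a protein of the spindle poles, fell by 1.09 and 1.63, and Ckap2l, another spindle protein, by 1.08 and 1.85. Ect2, the exchange factor that switches on RhoA for the cleavage furrow, fell by 1.14 and 1.33.

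Cep55 recruits the membrane-cutting machinery to the midbody at the end of cytokinesis. In Vg1.1+ cells it had 5.96, 6.17, 6.14 and 6.17 in the CD24+CD73- arrays, 5.88, 6.07 and 5.98 in the CD24+CD73+ arrays and 5.20, 5.37, 5.57 and 5.30 in the CD24-CD73+ arrays. In Vg2+ cells it had 5.64, 5.42 and 5.39 in the CD24+CD73- arrays, 6.19, 5.88, 6.08 and 6.08 in the CD24+CD73+ arrays and 4.34, 4.33, 4.44 and 4.45 in the CD24-CD73+ arrays. All 4 Vg2+ CD24-CD73+ arrays lay below each of the other 18 arrays and below the table median of 4.55. Cep55 differed by -0.61 ± 0.11 (adjusted p = 0.000479) with CD24 loss in Vg1.1+ cells and by -1.67 ± 0.10 (adjusted p = 1.02e-10) in Vg2+ cells, the smallest adjusted p of the 35 genes in that comparison.

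Kinetochores hold chromosomes to the spindle, and the NDC80 complex is their main microtubule anchor. Ndc80, its namesake subunit, had 6.38, 6.31, 6.49 and 6.63 in the CD24+CD73- arrays, 6.55, 6.45 and 6.45 in the CD24+CD73+ arrays and 5.54, 5.70, 5.36 and 5.44 in the CD24-CD73+ arrays in Vg1.1+ cells. Its Vg2+ values were 5.99, 5.57 and 5.79 in the CD24+CD73- arrays, 6.18, 6.07, 6.45 and 6.16 in the CD24+CD73+ arrays and 4.58, 5.05, 5.03 and 4.73 in the CD24-CD73+ arrays. The 3 Vg2+ CD24+CD73- arrays lay below the 4 Vg2+ CD24+CD73+ arrays, and both CD24-CD73+ groups lay below all other arrays of their subset. With CD24 loss Ndc80 differed by -0.97 ± 0.14 (adjusted p = 3.38e-05) in Vg1.1+ cells and by -1.37 ± 0.13 (adjusted p = 4.27e-08) in Vg2+ cells. Nuf2 and Spc25, subunits of the same complex, fell by 1.33 and 1.14 in Vg1.1+ cells and by 2.08 and 1.84 in Vg2+ cells. Cenpe, the kinetochore motor that moves chromosomes to the spindle equator, fell by 1.27 in Vg1.1+ and 2.01 in Vg2+ cells.

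The spindle checkpoint delays anaphase until every kinetochore is attached, and Bub1 is a kinase that recruits checkpoint proteins to kinetochores. Bub1 had 6.48, 6.88, 6.81 and 6.82 in the CD24+CD73- arrays, 6.28, 6.63 and 6.14 in the CD24+CD73+ arrays and 4.27, 5.43, 5.16 and 5.27 in the CD24-CD73+ arrays in Vg1.1+ cells. The Vg2+ arrays gave 6.21, 5.98 and 6.08 in the CD24+CD73- arrays, 6.65, 5.94, 6.34 and 6.45 in the CD24+CD73+ arrays and 4.79, 4.01, 4.49 and 3.87 in the CD24-CD73+ arrays. Replicate 1 was the lowest Vg1.1+ array at CD24+CD73- and at CD24-CD73+, and no CD24-CD73+ array reached an earlier array of its subset. Bub1 differed by -1.32 ± 0.24 (adjusted p = 0.000735) with CD24 loss in Vg1.1+ cells and by -2.06 ± 0.22 (adjusted p = 5.16e-07) in Vg2+ cells. Bub1b, which encodes the anaphase inhibitor BubR1, fell by 1.27 and 1.83 in Vg1.1+ and Vg2+ cells, and Ttk, which encodes the checkpoint kinase Mps1, by 1.01 and 1.81.

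Plk1, a kinase of mitotic entry, centrosome maturation and cytokinesis, had 7.07, 6.62, 6.83 and 6.72 in the CD24+CD73- arrays, 6.57, 6.47 and 6.61 in the CD24+CD73+ arrays and 4.89, 5.26, 5.98 and 5.53 in the CD24-CD73+ arrays in Vg1.1+ cells. In Vg2+ cells it had 6.28, 6.28 and 6.19 in the CD24+CD73- arrays, 5.61, 6.30, 5.83 and 6.52 in the CD24+CD73+ arrays and 5.06, 5.37, 4.95 and 4.82 in the CD24-CD73+ arrays. Replicates 1 and 3 of the Vg2+ CD24+CD73+ group lay below replicates 2 and 4, and the highest Vg2+ CD24-CD73+ array (5.37) was still below the lowest of them (5.61). Plk1 differed by -1.14 ± 0.22 (adjusted p = 0.00103) with CD24 loss in Vg1.1+ cells and by -1.02 ± 0.20 (adjusted p = 0.000697) in Vg2+ cells. Aurkb is the kinase of the chromosomal passenger complex, which corrects faulty attachments. Aurkb had 6.90, 6.90, 7.12 and 7.03 in the CD24+CD73- arrays, 6.84, 6.81 and 6.88 in the CD24+CD73+ arrays and 5.84, 5.55, 5.95 and 5.76 in the CD24-CD73+ arrays in Vg1.1+ cells. Its Vg2+ values were 6.21, 6.50 and 6.61 in the CD24+CD73- arrays, 6.11, 6.60, 5.62 and 6.51 in the CD24+CD73+ arrays and 5.35, 5.09, 5.47 and 5.11 in the CD24-CD73+ arrays. The same replicates 1 and 3 were the lower ones at Vg2+ CD24+CD73+, and the CD24-CD73+ arrays lay below the earlier ones in both subsets. Aurkb differed by -1.07 ± 0.18 (adjusted p = 0.00025) in Vg1.1+ cells and by -0.96 ± 0.16 (adjusted p = 0.000169) in Vg2+ cells.

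Birc5 encodes survivin, which docks the passenger complex at centromeres. It had 8.16, 8.08, 8.25 and 8.13 in the CD24+CD73- arrays, 7.90, 7.79 and 7.97 in the CD24+CD73+ arrays and 6.23, 7.11, 7.04 and 6.85 in the CD24-CD73+ arrays in Vg1.1+ cells. The Vg2+ arrays gave 7.73, 7.61 and 7.68 in the CD24+CD73- arrays, 7.58, 7.77, 6.78 and 7.82 in the CD24+CD73+ arrays and 6.39, 6.31, 6.52 and 6.10 in the CD24-CD73+ arrays. Replicate 3 stood apart as the lowest of the Vg2+ CD24+CD73+ arrays (6.78), although it was still above the highest CD24-CD73+ array (6.52). Birc5 differed by -1.08 ± 0.21 (adjusted p = 0.0011) with CD24 loss in Vg1.1+ cells and by -1.15 ± 0.19 (adjusted p = 0.000119) in Vg2+ cells. Cdca8, which encodes the passenger subunit borealin, fell by 1.22 and 1.18 in Vg1.1+ and Vg2+ cells. Aurka, the centrosome and spindle pole kinase, fell by 1.09 and 0.94, and its Vg2+ groups overlapped. With the Vg2+ groups of that comparison alone in the model, Aurka had an adjusted p of 0.0596. Nek2, which separates the centrosomes, fell by 0.84 and 0.60.

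Cdk1 is the kinase that drives entry into mitosis and Ccnb2 encodes cyclin B2, a partner of it. Cdk1 had 8.12, 8.22, 8.27 and 8.04 in the CD24+CD73- arrays, 7.91, 8.07 and 8.01 in the CD24+CD73+ arrays and 6.57, 6.96, 6.86 and 6.62 in the CD24-CD73+ arrays in Vg1.1+ cells. The values in Vg2+ cells were 7.57, 7.81 and 7.62 in the CD24+CD73- arrays, 7.26, 7.85, 6.70 and 7.94 in the CD24+CD73+ arrays and 6.17, 5.32, 6.16 and 5.77 in the CD24-CD73+ arrays. No CD24-CD73+ array reached an earlier array of its subset, and Vg2+ CD24+CD73+ replicate 3 was again the lowest of its group. Cdk1 differed by -1.24 ± 0.23 (adjusted p = 0.000759) with CD24 loss in Vg1.1+ cells and by -1.58 ± 0.21 (adjusted p = 8.5e-06) in Vg2+ cells. Ccnb2 had 8.86, 8.79, 8.88 and 8.85 in the CD24+CD73- arrays, 8.66, 8.81 and 8.76 in the CD24+CD73+ arrays and 7.39, 8.08, 7.75 and 7.57 in the CD24-CD73+ arrays in Vg1.1+ cells. Its Vg2+ values were 8.77, 8.40 and 8.44 in the CD24+CD73- arrays, 8.57, 8.63, 8.71 and 8.71 in the CD24+CD73+ arrays and 7.41, 6.96, 7.22 and 7.20 in the CD24-CD73+ arrays. The Vg2+ CD24+CD73+ arrays, replicate 3 among them, lay between 8.57 and 8.71, and the CD24-CD73+ arrays were the lowest of each subset. Ccnb2 differed by -1.05 ± 0.14 (adjusted p = 1.63e-05) in Vg1.1+ cells and by -1.46 ± 0.13 (adjusted p = 2.16e-08) in Vg2+ cells. Ccna2, cyclin A2 of S phase and early mitosis, fell by 1.14 and 1.83 in Vg1.1+ and Vg2+ cells.

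Cdc20 activates the anaphase-promoting complex, the ubiquitin ligase that ends mitosis, and departed most from the other genes. It had 4.94, 5.20, 5.16 and 5.22 in the CD24+CD73- arrays, 4.92, 5.04 and 4.86 in the CD24+CD73+ arrays and 4.93, 4.58, 4.13 and 4.64 in the CD24-CD73+ arrays in Vg1.1+ cells. The Vg2+ arrays gave 4.51, 4.67 and 4.76 in the CD24+CD73- arrays, 5.47, 4.73, 5.89 and 4.95 in the CD24+CD73+ arrays and 4.26, 4.36, 4.01 and 4.43 in the CD24-CD73+ arrays. Replicates 1 and 3 of Vg2+ CD24+CD73+, the low ones for Plk1 and Aurkb, were the high ones here, and the Vg1.1+ CD24+CD73+ and CD24-CD73+ arrays overlapped. Its values were also low, with group means from 4.27 to 5.26 around the table median of 4.55. Cdc20 differed by -0.37 ± 0.21 (adjusted p = 0.282) with CD24 loss in Vg1.1+ cells and by -0.99 ± 0.19 (adjusted p = 0.000643) in Vg2+ cells. Over the whole course it differed by -0.56 ± 0.19 (adjusted p = 0.0403) in Vg1.1+ cells, a call lost under 9 of 31 alternatives, and by -0.38 ± 0.21 (adjusted p = 0.217) in Vg2+ cells. Ube2c, the ubiquitin-conjugating enzyme of the complex, fell by 1.12 and 1.13 with CD24 loss in Vg1.1+ and Vg2+ cells. Cdca3, described in Xenopus as a factor in the degradation of the kinase Wee1, fell by 1.20 and 1.56.

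Mki67 encodes Ki-67, the coat protein of mitotic chromosomes used as a marker of dividing cells, and Top2a the topoisomerase that untangles sister chromatids. Mki67 had 9.80, 9.98, 10.01 and 9.88 in the CD24+CD73- arrays, 9.55, 9.49 and 9.49 in the CD24+CD73+ arrays and 8.39, 8.52, 8.58 and 8.65 in the CD24-CD73+ arrays in Vg1.1+ cells. The values in Vg2+ cells were 9.26, 9.30 and 9.16 in the CD24+CD73- arrays, 9.37, 9.27, 9.36 and 9.62 in the CD24+CD73+ arrays and 8.38, 8.08, 8.33 and 7.72 in the CD24-CD73+ arrays. The 3 Vg1.1+ groups did not overlap each other and stood in stage order, while the Vg2+ CD24+CD73- and CD24+CD73+ arrays overlapped. Mki67 differed by -0.97 ± 0.13 (adjusted p = 2.32e-05) with CD24 loss in Vg1.1+ cells and by -1.27 ± 0.12 (adjusted p = 7.22e-08) in Vg2+ cells. Top2a had 9.39, 9.61, 9.59 and 9.35 in the CD24+CD73- arrays, 9.06, 9.35 and 8.93 in the CD24+CD73+ arrays and 7.34, 7.93, 7.87 and 7.91 in the CD24-CD73+ arrays in Vg1.1+ cells. Its Vg2+ values were 8.96, 9.12 and 8.72 in the CD24+CD73- arrays, 9.03, 8.87, 8.76 and 9.23 in the CD24+CD73+ arrays and 7.36, 6.53, 7.33 and 6.67 in the CD24-CD73+ arrays. Its CD24-CD73+ arrays lay below all earlier arrays of each subset, with Vg1.1+ replicate 1 the lowest of its group. Top2a differed by -1.35 ± 0.20 (adjusted p = 5.23e-05) in Vg1.1+ cells and was 4-fold lower in Vg2+ cells (adjusted p = 3.75e-08).

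**Figure D3:**
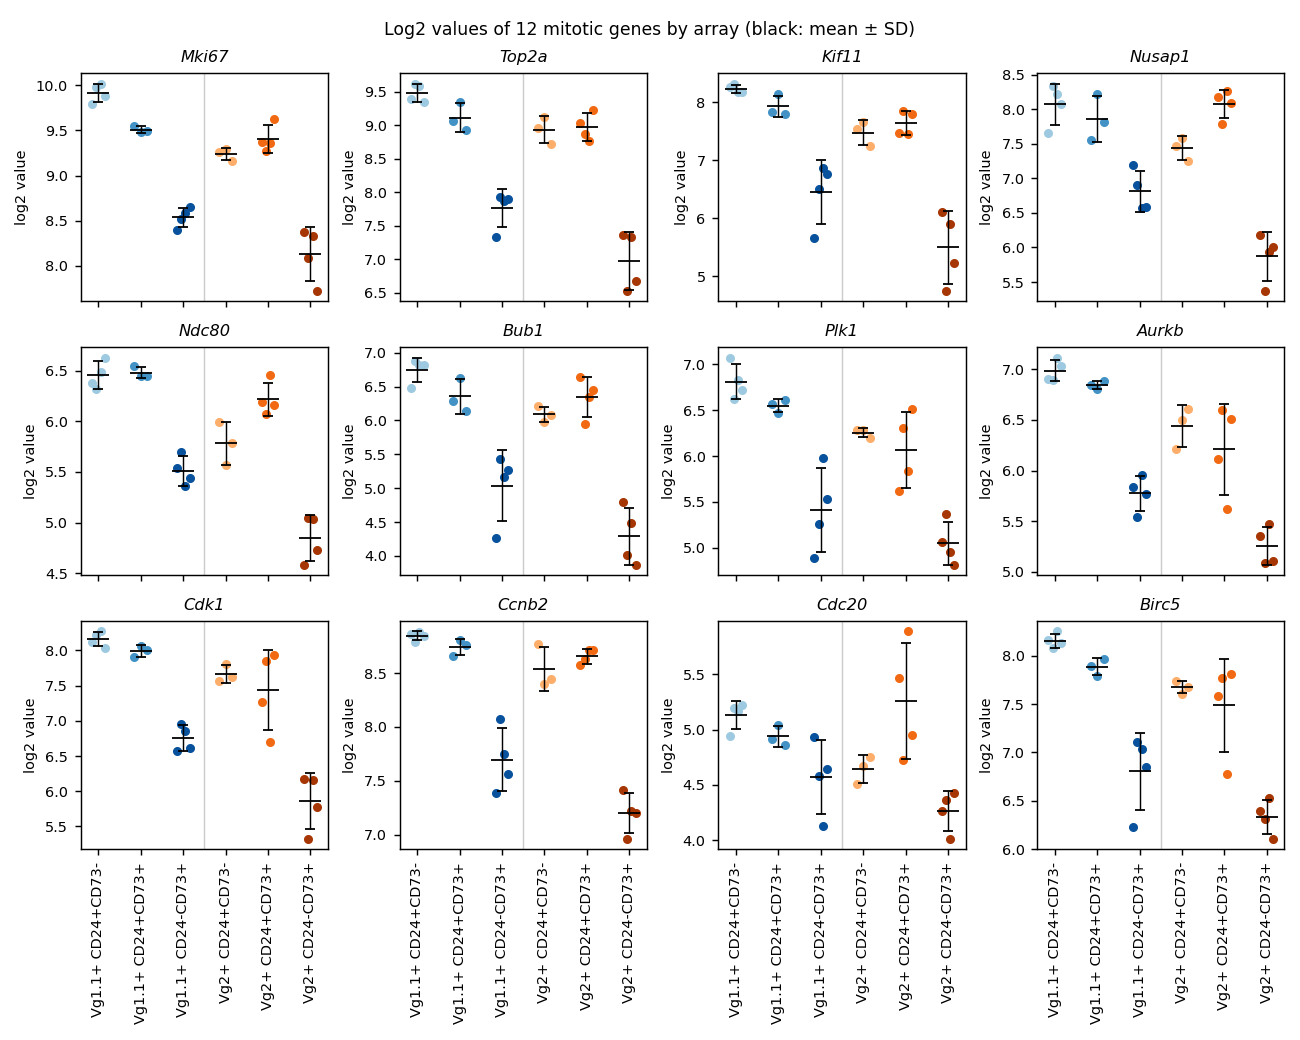
Log2 values (y axis, own scale for each gene) of 12 of the genes on every array, by group along the x axis, with the mean and SD of each group in black. In all panels except that of Cdc20 the CD24-CD73+ points lie below the earlier points of the same subset.

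CD73 gain, the CD24+CD73+ stage against CD24+CD73-, changed few of these genes. In Vg1.1+ cells 0 of 35 genes were called by limma, where 7.82% of all tested genes were, and at an unadjusted p under 0.05 there were 3 lower and 0 higher. The median of the 35 was -0.22, with 31 of 35 below 0 and a range from -0.41 to 0.03. Mki67 came closest, at -0.41 ± 0.13 (adjusted p = 0.0631), and 12 genes had groups that did not overlap, all lower at CD24+CD73+ (12.4% of all tested genes). In Vg2+ cells 3 of 35 rose and 0 fell, where 5.82% of all tested genes rose and 6.41% fell. These were Cep55 (0.58 ± 0.11, adjusted p = 0.000763), Nusap1 (0.64 ± 0.21, adjusted p = 0.0461) and Ndc80 (0.43 ± 0.14, adjusted p = 0.0387). The median of the 35 was 0.16, with 24 of 35 above 0. Groups did not overlap for 5 genes that were higher at CD24+CD73+ (9.06% of all tested genes), Kif4, Kif20a, Nusap1, Cep55 and Ndc80. Cdc20 was at 0.61 ± 0.21 (adjusted p = 0.0596) and Kif20b at 0.56 ± 0.22 (adjusted p = 0.106).

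The count of 3 in Vg2+ cells moved when arrays were left out. It was 1 without replicate 2 or 3 of the Vg2+ CD24+CD73- group or replicate 3 of the Vg2+ CD24+CD73+ group, 5 without Vg1.1+ CD24-CD73+ replicate 1 and 7 without Vg2+ CD24+CD73+ replicate 2. The count of 0 in Vg1.1+ cells was 1 without replicate 1 of Vg1.1+ CD24-CD73+ or replicate 1 or 4 of Vg2+ CD24-CD73+, and 13 with array weights. The number of all tested genes called with array weights is not given here. For all tested genes, leaving out 1 array gave 701 to 1399 calls in Vg2+ cells and 437 to 863 in Vg1.1+ cells. At the same step in Vg2+ cells 3 of 3 tested myeloid markers rose, Cd68 by 0.58, H2-Aa by 0.83 and C1qb by 0.98. C1qa and Csf1r of the same list did not pass the filter on low values and did not rise. Their Vg2+ means were 2.86 and 3.16 at CD24+CD73- and 2.80 and 3.13 at CD24+CD73+. Csf1r stayed between 2.98 and 3.34 at Vg2+ CD24+CD73+. Beside the Vg1.1+ values, the alpha-beta marker sum was 18.0 to 19.5 in CD24+CD73+ arrays and 21.5 to 29.1 in CD24+CD73- arrays. Over that step the Vg1.1+ mean went from 6.53 to 4.24 for Cd8b1, 5.66 to 4.03 for Cd8a and 2.57 to 1.63 for Rag2. Ptcra went from 5.05 to 4.84, and Cd4 did not fall (4.02 to 4.07). The part of these markers in the results was not tested. Without Vg1.1+ CD24+CD73- replicate 1, the array of the highest alpha-beta sum, the count in Vg1.1+ cells was again 0. The Vg1.1+ step minus the Vg2+ step, a test of the difference itself, called 0 of 35 (0.0936% of all tested genes were called). Its median was -0.39, and 11 genes were lower and 0 higher at an unadjusted p under 0.05. Without replicate 1 of Vg1.1+ CD24-CD73+, replicate 1 of Vg2+ CD24+CD73- or replicate 2 of Vg2+ CD24+CD73+ the number called was 1, and with array weights it was 11. Of all tested genes 7 to 24 were called when 1 array was left out, and the number with array weights is not given here.

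**Figure D4:**
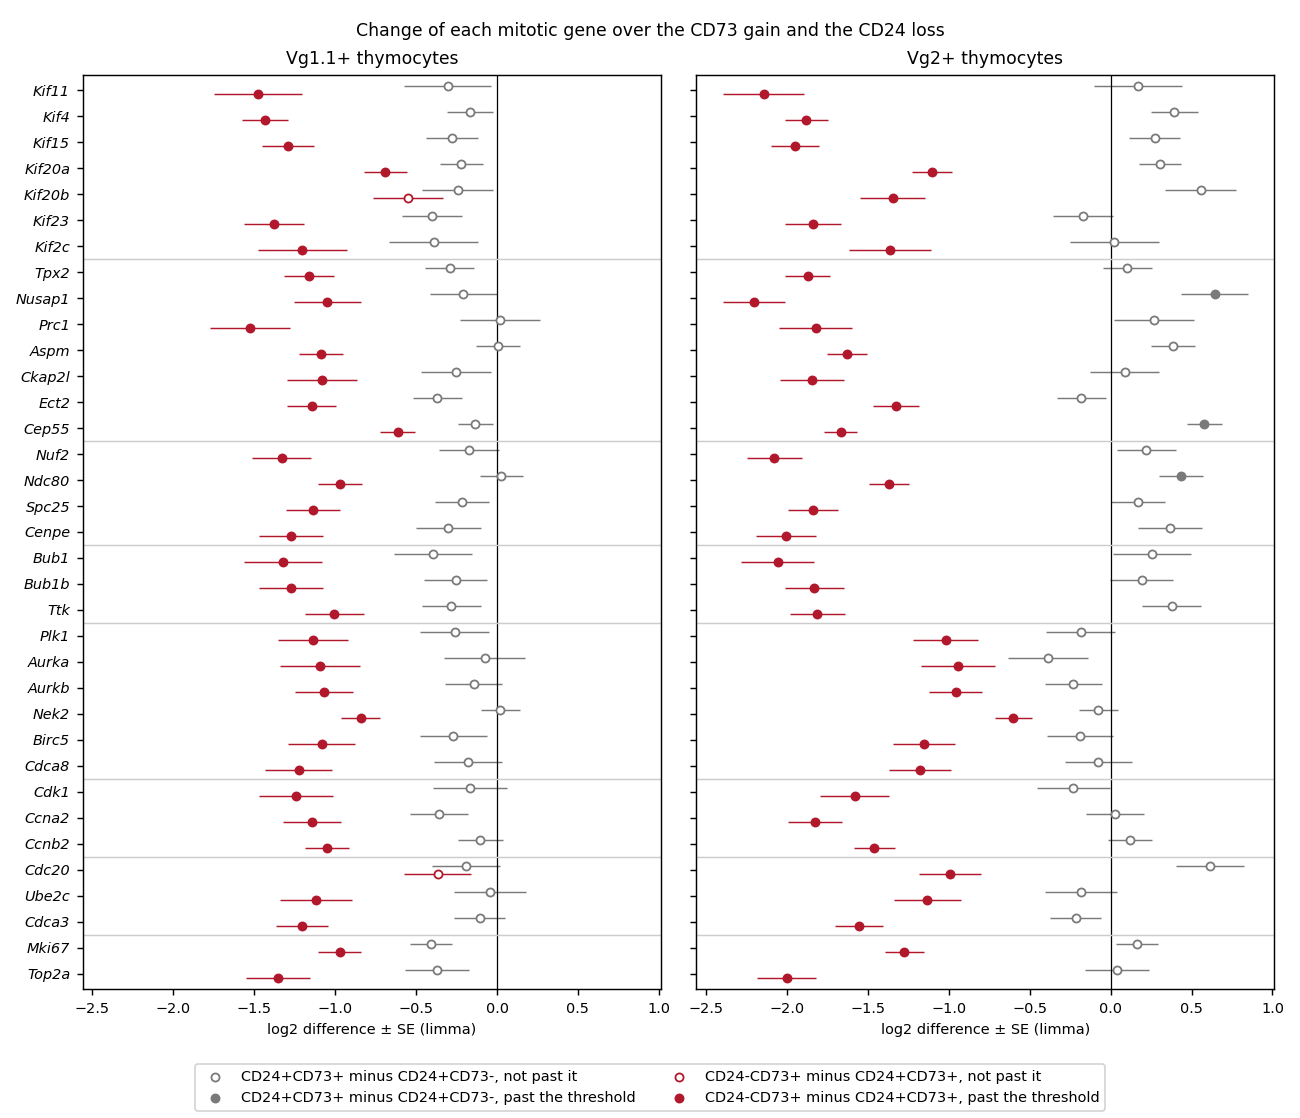
Log2 difference of each gene (rows) for CD73 gain (grey) and CD24 loss (red), with limma's SE as bars, in Vg1.1+ (left) and Vg2+ (right) cells, filled where the adjusted p is under 0.05. The red points lie left of 0 for all 35 genes in both subsets and the grey points lie between -0.41 and 0.64.

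Vg1.1+ cells were set against Vg2+ cells at each stage, as the study's design compares subsets stage by stage. At CD24+CD73-, 8 of 35 genes were higher in Vg1.1+ cells and 0 lower, where 1.56% of all tested genes were higher and 0.492% lower. All 35 differences were above 0, with a median of 0.56 (1.47-fold), against 0.02 over all tested genes. The Vg1.1+ and Vg2+ arrays did not overlap for 33 genes (11.2% of all tested genes), and the 2 that did were Kif23 and Ckap2l. The called genes were Kif4 (0.77 ± 0.14, adjusted p = 0.00487), Cep55 (0.63 ± 0.11, adjusted p = 0.00269), Mki67 (0.68 ± 0.13, adjusted p = 0.00693), Ndc80 (0.67 ± 0.14, adjusted p = 0.00968), Tpx2 (0.68 ± 0.15, adjusted p = 0.0221), Ect2 (0.67 ± 0.15, adjusted p = 0.0226), Kif15 (0.65 ± 0.16, adjusted p = 0.0365) and Kif20a (0.51 ± 0.13, adjusted p = 0.0488). Medians by role were close to each other, among them 0.65 for the kinesins, 0.57 for the checkpoint kinases, 0.51 for the kinases and passenger proteins and 0.49 for the cyclins and CDK, and the lowest was 0.35 for the anaphase-promoting complex. Kif20a was called under 11 of 32 alternatives and Kif15, Tpx2 and Ect2 under 23 to 25. The count was 2 to 5 when Vg1.1+ CD24+CD73- replicate 2, 3 or 4 or any of the 3 Vg2+ CD24+CD73- arrays was left out, 6 without Vg1.1+ replicate 1 and 27 with only these 2 groups in the model. Over all tested genes, leaving out 1 array gave 63 to 294 calls, and the number with only these 2 groups is not given here. In the Vg1.1+ arrays the alpha-beta marker sum was 21.5 to 29.1, against 19.7 to 21.5 in Vg2+ arrays, and the part of these markers was not tested.

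At CD24+CD73+, 0 of 35 genes were called in limma, where 0.0117% of all tested genes were higher in Vg1.1+ cells and 0 were lower. At an unadjusted p under 0.05, 9 of the 35 were higher and 0 lower. The median of the 35 was 0.14, beside 0.07 over all tested genes, and 27 of 35 were above 0. The groups did not overlap for Ect2, Aurka, Aurkb, Nek2, Cdca8 and Cdca3, each higher in Vg1.1+ cells (13.6% of all tested genes). Without Vg2+ CD24+CD73+ replicate 2 the count of called members was 2, and that of all tested genes was 97. For the 6 kinases and passenger proteins the median was 0.48, with values from 0.40 to 0.68, and for the 3 checkpoint kinases it was 0.01. As given above for Plk1, Aurkb, Birc5 and Cdk1, Vg2+ CD24+CD73+ replicates 1 and 3 lay below replicates 2 and 4, and the Vg1.1+ group spanned a narrower range. The myeloid marker sum at this stage was 18.2 to 19.3 in Vg1.1+ arrays and 20.6 to 22.4 in Vg2+ arrays, and its part was not tested.

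At CD24-CD73+, 24 of 35 genes were higher in Vg1.1+ cells and 0 lower, where 5.79% of all tested genes were higher and 5.72% lower. The median of the 35 was 0.66 (1.58-fold), against 0.01 over all tested genes, and the arrays did not overlap for 17 genes (5.72% of all tested genes). All 4 kinetochore, 3 checkpoint and 3 cyclin and CDK genes were called, as were 6 of 7 spindle and cytokinesis genes and 4 of 7 kinesins. Of the 6 kinases and passenger proteins 1 was called, Aurkb (0.52 ± 0.16, adjusted p = 0.0432), and of the 3 genes of the anaphase-promoting complex 1, Cdca3 (0.81 ± 0.15, adjusted p = 0.000544). The Aurkb call held under 13 of 32 alternatives, with adjusted p-values up to 0.125, and those of Kif20a, Bub1 and Mki67 under 20 to 23. The largest differences were those of Tpx2 (0.99 ± 0.14, adjusted p = 3.68e-05), Cep55 (0.97 ± 0.10, adjusted p = 4.86e-07), Nuf2 (0.96 ± 0.17, adjusted p = 0.000429), Kif11 (0.95 ± 0.25, adjusted p = 0.0146) and Nusap1 (0.94 ± 0.19, adjusted p = 0.00161). Cdk1 followed at 0.90 ± 0.21 (adjusted p = 0.00607). Mki67 and Top2a were higher by 0.41 ± 0.12 and 0.79 ± 0.18. Kif20b, Kif23, Kif2c, Prc1, Plk1, Aurka, Nek2, Birc5, Cdca8, Cdc20 and Ube2c were not called, with adjusted p-values from 0.061 to 0.399. The count was 16 to 26 when 1 array was left out and 14 with only these 2 groups in the model, and none of the 35 differences reached 2-fold. Of all tested genes 765 to 1186 were called when 1 array was left out, and the number with only these 2 groups is not given here. The B cell marker sum was 12.8 to 14.2 in Vg1.1+ arrays and 14.4 to 15.3 in Vg2+ arrays. Within that list only Cd79b was higher in Vg2+ cells, with a log2 difference of -1.64 (Vg1.1+ minus Vg2+). Cd79a and Ms4a1, which did not pass the filter on low values, were not higher there. Their means were 4.12 and 2.45 in Vg1.1+ cells and 3.98 and 2.31 in Vg2+ cells. The part of these markers was not tested.

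**Figure D5:**
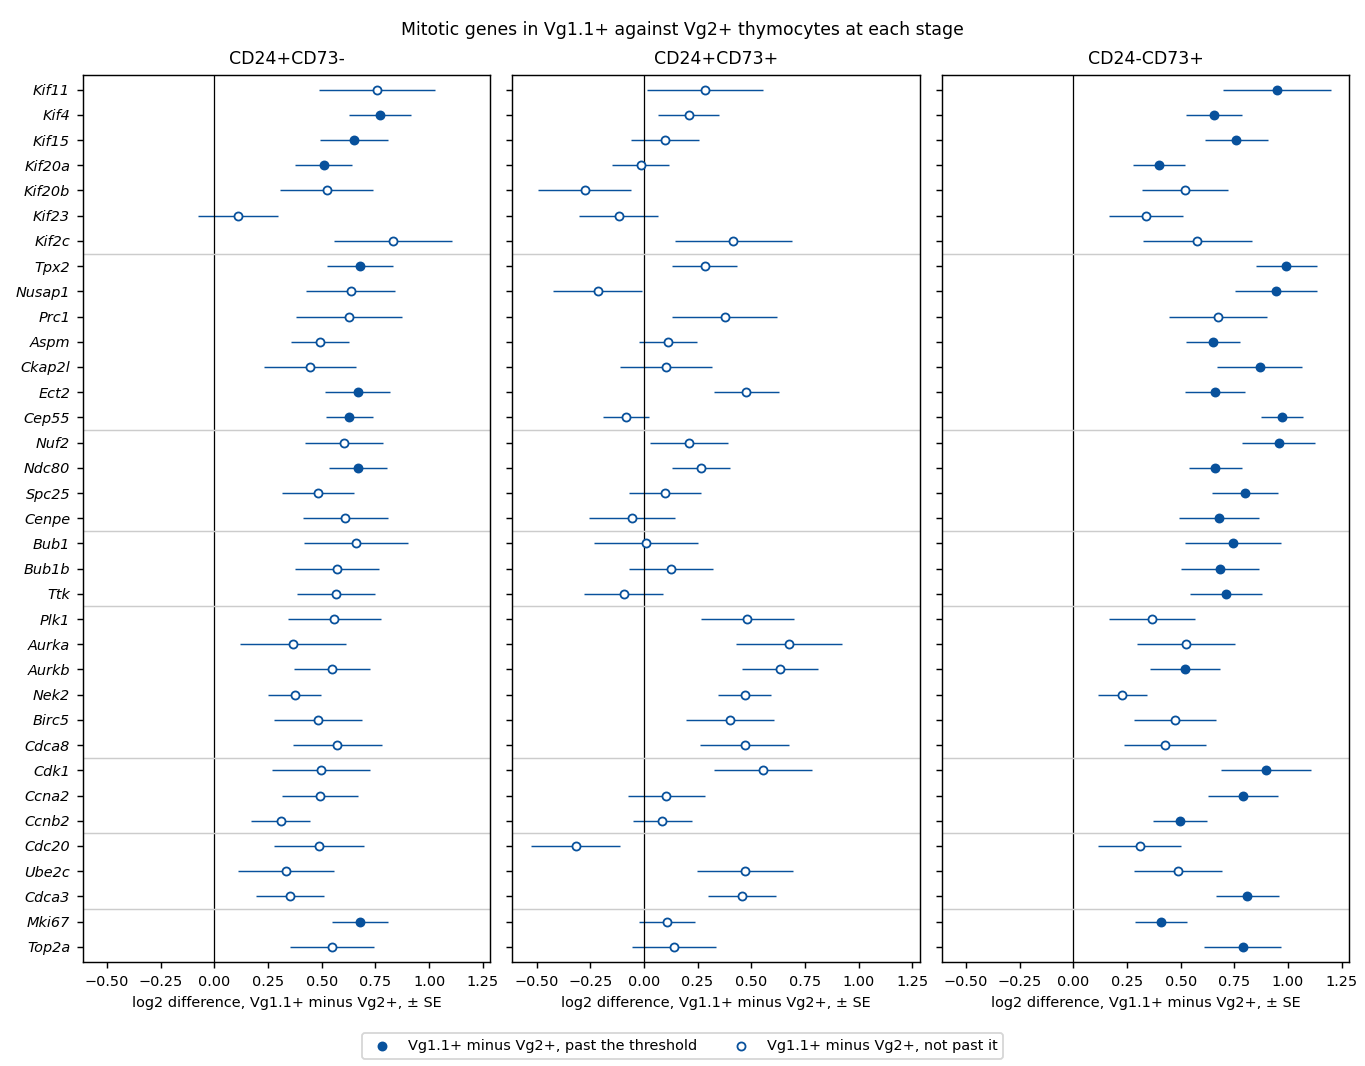
Log2 difference of each gene (rows), Vg1.1+ minus Vg2+, with limma's SE as bars, at the 3 stages (panels), filled where the adjusted p is under 0.05. All points lie right of 0 at CD24+CD73- and at CD24-CD73+, and they scatter around 0 at CD24+CD73+.

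The fall with CD24 loss was compared between the subsets by the difference of the 2 steps, Vg1.1+ minus Vg2+. The fall was larger in Vg2+ cells for 30 of the 35 genes, and 2 passed the test, where 1.83% of all tested genes did in that direction. Nusap1 differed by 1.16 ± 0.28 (adjusted p = 0.0176) between the steps, having fallen by 1.05 in Vg1.1+ cells and by 2.20 in Vg2+ cells. Cep55 differed by 1.05 ± 0.15 (adjusted p = 8.38e-05), having fallen by 0.61 and 1.67. The median of the 35 was 0.46, against -0.06 over all tested genes, and at an unadjusted p under 0.05 there were 20 genes above 0 and 0 below. By role, the medians ran from 0.73 for the checkpoint kinases, 0.72 for the kinetochore and 0.71 for the spindle and cytokinesis genes to -0.11 for the kinases and passenger proteins. Plk1, Aurka, Aurkb, Nek2 and Cdca8 were the 5 genes with the larger fall in Vg1.1+ cells, from -0.24 for Nek2 to -0.04 for Cdca8, none of them past the test. The count of 2 was 1 without Vg1.1+ CD24+CD73+ replicate 1 or 3, and 4 to 7 without replicate 1 of Vg1.1+ CD24-CD73+, replicate 2 or 3 of Vg2+ CD24+CD73+, or replicate 3 of Vg2+ CD24-CD73+. It was 18 with array weights. Of all tested genes 265 to 578 were called when 1 array was left out, and the number with array weights is not given here. In the same test 1 marker of other cells passed, the B cell marker Cd79b, at -2.02 ± 0.40 (adjusted p = 0.00345). The other measured B cell markers, Cd79a and Ms4a1, did not pass the filter on low values. The part of Cd79b was not tested.

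The genes also varied together from array to array. Over the 595 pairs of genes and 22 arrays the median Pearson r was 0.92, from 0.40 to 0.99, over arrays that fall into 6 groups. After each group's mean was removed the median r was 0.35. With the mean of the other 34 genes, Cdc20 had the lowest r (0.65) and Kif20b the next (0.83), and after removal of the group means Cdc20 was at -0.59 and Ndc80 at -0.24. Top2a had the highest r within groups, 0.91. These arrays share processing and the spread of the array differed between them, so the values are descriptions only.

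Genes of the same pathway outside the list were described from lists of other mitotic and cell cycle genes. With CD24 loss 6.92% of all tested genes fell in Vg1.1+ cells and 9.91% in Vg2+ cells. Of 27 tested kinetochore and centromere genes, 12 fell at that step in Vg1.1+ cells and 17 in Vg2+ cells and 0 rose, with medians of -0.70 and -0.85. Ska3, a subunit that couples kinetochores to microtubules, fell by 1.18 in Vg1.1+ cells, and Cenpk, of the inner kinetochore, by 1.96 in Vg2+ cells. Of 20 spindle and cytokinesis genes, 16 and 17 fell and 0 rose, led in Vg1.1+ cells by Cit (-1.60 ± 0.35), the citron kinase of the midbody, and Anln (-1.32 ± 0.18), a scaffold of the contractile ring. In Vg2+ cells the spindle-binding receptor Hmmr (-1.85 ± 0.19) and Shcbp1 (-1.83 ± 0.25) led. Of 16 condensin and cohesin genes, 10 and 7 fell and 0 rose. The condensin genes Ncaph and Ncapg2 fell by 1.75 and 1.59 in Vg2+ cells. Of 23 genes of mitotic entry and exit, 9 and 12 fell and 0 rose, led by the mitotic kinase Pbk at -1.43 ± 0.20 in Vg1.1+ and -2.01 ± 0.19 in Vg2+ cells. The Vg2+ fall was larger by the test of the difference for Cenpk (1.37), Sgo2a (0.94), Spag5 (0.74), Melk (0.65) and Sass6 (0.52).

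At CD73 gain few genes of these lists were called. In Vg1.1+ cells 2 of 23 genes of mitotic entry and exit rose and 1 fell, Melk (-0.50 ± 0.13), where 4.37% of all tested genes rose and 3.45% fell. In Vg2+ cells 3 of 20 spindle and cytokinesis genes rose, Spag5 (0.48 ± 0.14) and Depdc1b (0.41 ± 0.10) the most, as did 1 of 16 condensin and cohesin genes, Smc4 (0.62 ± 0.15), and 1 of 23 genes of entry and exit. The kinetochore gene Cenpt fell there, at -0.61 ± 0.12, 1 of 27. Of all tested genes 5.82% rose and 6.41% fell at this step in Vg2+ cells, and the Vg2+ counts of 1 lie near or below those shares. Cdc25b, a phosphatase that activates Cdk1, rose by 1.04 ± 0.25 (adjusted p = 0.0112) in Vg1.1+ cells. Pttg1, which encodes the separase inhibitor securin, rose by 0.60 ± 0.14 (adjusted p = 0.00704) in Vg1.1+ cells and by 0.53 ± 0.14 (adjusted p = 0.0135) in Vg2+ cells. Over the whole course Pttg1 rose by 0.88 ± 0.14 (adjusted p = 5.74e-05) in Vg2+ cells, where 34 of the 35 genes fell.

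The S phase genes, which copy the DNA, were set beside the mitotic genes. Their median on an array was 6.52 to 6.63, 5.96 to 6.08 and 5.47 to 5.91 over the 3 stages in Vg1.1+ cells and 5.75 to 5.97, 5.82 to 6.09 and 4.97 to 5.37 in Vg2+ cells. In Vg1.1+ cells the 3 stages did not overlap, whereas the mitotic median overlapped between the first and the second. At CD73 gain 4 of 21 S phase genes fell in Vg1.1+ cells and 0 rose, where 3.45% of all tested genes fell, with a median of -0.42. The largest falls were those of Gins1 (-0.63 ± 0.18) and Mcm10 (-0.55 ± 0.10), which help to start the replication machinery. In Vg2+ cells 1 of 21 fell, Gins2, at -0.70 ± 0.21, where 6.41% of all tested genes fell. With CD24 loss 14 fell in Vg1.1+ and 15 in Vg2+ cells, with medians of -0.66 and -0.88, where 6.92% and 9.91% of all tested genes fell. The S phase genes higher in Vg1.1+ than in Vg2+ cells numbered 9 of 21 at CD24+CD73-, 0 at CD24+CD73+ and 10 at CD24-CD73+. The shares of all tested genes were 1.56%, 0.0117% and 5.79%.

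Of 15 tested regulators of the DREAM, MuvB and E2F families, 4 fell and 0 rose with CD24 loss in Vg1.1+ cells, and 5 fell and 1 rose in Vg2+ cells. At that step 6.92% of all tested genes fell and 4.28% rose in Vg1.1+ cells, and 9.91% fell and 10.3% rose in Vg2+ cells. E2f8, a repressor made during S phase, fell by 0.98 in Vg1.1+ and 1.44 in Vg2+ cells. Lin9, of the MuvB core, fell by 0.75 and 0.54. Rbl2, which encodes the DREAM pocket protein p130, rose by 1.07 ± 0.16 (adjusted p = 4e-05) in Vg2+ cells and was at 0.34 ± 0.17 (adjusted p = 0.224) in Vg1.1+ cells. Of 9 CDK inhibitors and antiproliferative genes 1 rose with CD24 loss in each subset, where 4.28% of all tested genes rose in Vg1.1+ cells and 10.3% in Vg2+ cells. It was Tob1, at 0.93 ± 0.11 in Vg1.1+ and 0.55 ± 0.10 in Vg2+ cells. Ccng2 and Cdkn2c fell in both. Of 8 G1 cyclin and Myc genes 3 and 4 fell and 0 rose, among them the kinase Cdk6 at -1.33 ± 0.25 and -0.80 ± 0.23. Cdk6 had also fallen in Vg2+ cells at CD73 gain, by 0.99.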

How the data were processed

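Total RNA of 22 samples was hybridised to 1 array each. Per the submitters' processing notes the authors processed the arrays with RMA in the oligo package, so the deposited values are normalized log2 expression values per probe set; versions and build are not given in the sources used here. The values were used as deposited. The arrays still differed in spread after that normalization, with array SDs from 1.61 to 2.09 and medians from 4.43 to 4.76. With no counts in the files, precision is set by how many arrays a group has.

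Of 16755 probe sets, 14996 had 1 gene symbol in GEO's platform annotation, 1019 several and 740 none, and only those with 1 were named. Symbols were checked against RefSeq through 14941 matched gene identifiers, and 0 differed. For 135 genes with several probe sets the one of highest mean was kept. Genes above the table's median of 4.55 on at least 3 arrays were tested (8545 of 14860). A model with a mean for each of the 6 groups was fitted over the 22 arrays with limma 3.58.1 (R 4.3.3; lmFit, contrasts.fit and eBayes). Its two-sided p-values were adjusted by Benjamini-Hochberg across the 8545 genes, and calls were made under 0.05. Differences are given ± SE. The pipeline was tested on simulated data.

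The members, the other gene lists and the tests were chosen with earlier results of these data known. Named are all members, the called members of other lists with the largest differences (at most 2 in each direction per comparison), and the 10 tested genes outside the lists most like the members' mean. Values per array are given for 12 members chosen by role and for members that departed from the rest (Kif20b) or differed between the subsets (Cep55). Same-numbered samples were checked for pairing. Over 51 same-numbered pairs, deviations from the group means correlated at -0.67 to 0.56, and 6 pairs were above 0.1. Differently numbered arrays were not compared, so this check cannot exclude pairing. The labels do not say that a number marks a shared animal or day, and numbers were not taken as pairs. Alternatives were a replicate block, other filters, moderation with trend, fewer groups in the model, array weights, cyclic loess, array spread as a covariate, leaving out the arrays of narrowest spread, a minimum fold of 2 and each array left out.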

Additional observations from a re-analysis of the deposited data

Results flagged for a closer look

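On 6 occasions among 144 tests of a group of 4 arrays, 1 array lay farther from the other 3 than Dixon's 95% critical value allows. Chance gives about 1 in 20, and 6 of 144 is not above that rate. The tests share arrays, so they are not independent. All 6 were a replicate 1 of Vg1.1+ cells at its group's low end. In Vg1.1+ CD24-CD73+ cells, where replicate 1 has the narrowest spread of values of the 22 arrays, Kif15 read 5.30 on it against 5.73 to 5.77 on the others, Kif23 read 5.06 against 5.87 to 5.95, and Top2a read 7.34 against 7.87 to 7.93. In Vg1.1+ CD24+CD73- cells, where replicate 1 has the highest alpha-beta marker sum, Kif20b read 6.67 against 7.22 to 7.30, Cep55 read 5.96 against 6.14 to 6.17, and Bub1 read 6.48 against 6.81 to 6.88. The part of array spread or of other cells in these values was not tested.

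The step of CD24 loss differed between the subsets for Nusap1, by 1.16 on the log2 scale (Vg1.1+ minus Vg2+, adjusted p = 0.0176 in limma over all tested genes), and for Cep55, by 1.05 (adjusted p = 8.38e-05). The call for Nusap1 was lost with the replicate block, without the arrays of narrowest spread, and without Vg1.1+ CD24+CD73+ replicate 1 or 3 (adjusted p up to 0.0778). Cep55 passed under all 32 alternatives.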

How the results depend on the processing

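No difference of any of the 35 genes that passed the test changed sign under any of 32 alternatives, 22 of which left out 1 array. The counts with CD24 loss and over the whole course stayed within 1.5 times. The other counts did not, and the cause was not tested. The counts that follow in this paragraph are of the 35 genes only. They are given without the number of all tested genes called under the same alternative. With the replicate block, 1 gene was called for CD73 gain in Vg2+ cells, 4 between the subsets at CD24+CD73- and 1 for the difference of CD24 loss. Without a filter, 1 was called for CD73 gain in Vg2+ cells. With only the groups compared in the model, fewer arrays give the spread, and 3 were called for CD73 gain in Vg1.1+ cells, 27 between the subsets at CD24+CD73- and 14 at CD24-CD73+. With array weights, 13 were called for CD73 gain in Vg1.1+ cells, 8 in Vg2+ cells, 32 between the subsets at CD24+CD73- and 2 at CD24+CD73+, 11 for the difference of CD73 gain and 18 for that of CD24 loss. With cyclic loess, 6 were called for CD73 gain in Vg2+ cells, 1 for the difference of CD73 gain and 11 for that of CD24 loss. With array spread as a covariate, these were 5, 1 and 15, and 2 for CD73 gain in Vg1.1+ cells. Without both arrays of narrow spread, 1 was called for CD73 gain in each subset, 14 between the subsets at CD24+CD73- and 7 for the difference of CD24 loss. At a minimum fold of 2, 0 were left for CD73 gain in Vg2+ cells, 0 between the subsets at CD24+CD73- and 0 at CD24-CD73+, as none of these genes differed by 2-fold.

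Leaving out 1 array at a time gave 0 to 1 for CD73 gain in Vg1.1+ cells, 1 to 7 in Vg2+ cells, 33 to 34 for CD24 loss in Vg1.1+ cells, 35 in each case in Vg2+ cells, 2 to 9 between the subsets at CD24+CD73-, 0 to 2 at CD24+CD73+, 16 to 26 at CD24-CD73+, 0 to 1 for the difference of CD73 gain and 1 to 7 for that of CD24 loss. The number of all tested genes called also moved with the array left out. For CD73 gain it was 437 to 863 in Vg1.1+ and 701 to 1399 in Vg2+ cells, and for CD24 loss 623 to 1223 and 1410 to 2078. Between the subsets it was 63 to 294 at CD24+CD73-, 0 to 97 at CD24+CD73+ and 765 to 1186 at CD24-CD73+. For the differences of CD73 gain and of CD24 loss it was 7 to 24 and 265 to 578. Of the 3 Vg2+ calls at CD73 gain, Cep55 was lost only at the minimum fold of 2, Nusap1 passed in 14 of 32 alternatives and Ndc80 in 22. Signal near the table median limits Cdc20 and Nek2, which the stricter filter left untested. In Vg2+ CD24-CD73+ cells the means of Kif4, Kif2c, Aspm, Ckap2l, Ect2, Cep55, Nuf2, Bub1 and Ttk were also below that median. They ran from 3.58 for Ckap2l to 4.44 for Nuf2, so differences that use this group rest on low values for these genes.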

Other observations

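The 10 tested genes outside all lists whose values ran most like the mean of the 35 were Brip1 (r = 0.989), Pclaf (0.979), Ezh2 (0.972), Clspn (0.971), Chek1 (0.969), Parpbp (0.968), Cdca2 (0.964), Selenoh (0.961), Ttc3 (0.961) and Diaph3 (0.959), as Pearson's r over the 22 arrays, which fall into 6 groups, and given as a description. Brip1 encodes a helicase of DNA repair, Pclaf a factor bound to the replication clamp, Ezh2 the methyltransferase of Polycomb complex PRC2, and Clspn and Chek1 the mediator and kinase of the replication checkpoint. With CD24 loss Brip1 differed by -0.99 ± 0.11 in Vg1.1+ cells and by -1.57 ± 0.10 in Vg2+ cells, Ezh2 by -1.19 ± 0.13 and -1.50 ± 0.12, and Chek1 by -0.83 ± 0.19 and -1.77 ± 0.17. They were chosen for this likeness on the same arrays, so their differences are given with no test.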
